A study of Mus musculus with 4 samples.

Results

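The genes described are those of the intermediate filament and beaded filament system of the lens. They are the beaded filament genes Bfsp1 and Bfsp2, the filament genes Vim, Nes and Gfap, the simple epithelial keratins Krt8, Krt18 and Krt19, and the linker genes Plec1 (now named Plec) and Dst. Every array probe used that the deposited table names by 1 of these 10 symbols was taken, which gave 35 of 45263 probes. The lines left out (18) were not searched. Of the 10 genes, 9 were among the 28853 gene names with a probe used, and Bfsp1 had none among those probes.

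Gene expression was compared between lenses of Celf1 cKO mice (n = 2, replicates A and B) and Control mice (n = 2, replicates A and B) at postnatal day 6, with RNA of 1 lens on each array. CELF1 is an RNA-binding protein that acts on the stability, splicing and translation of its target RNAs. The cKO mice carried 1 Celf1 lacZKI germline knockout allele, 1 Celf1 flox allele with loxP sites around exon 5, and the transgene Pax6GFPCre, whose Cre is switched on in the lens placode. The Control mice were Celf1 lacZKI/+, so that the lenses of both groups had the lacZ knock-in allele, and no lens without it was measured. The background of all mice was a mix of C57BL/6J and FVB. The sources used here do not say whether the 2 lenses of a group came from different animals or litters, and p-values measure the spread between these samples only.

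Intermediate filaments are rope-like polymers of proteins that share a central coiled rod. Lens cells hold vimentin filaments throughout, and when epithelial cells turn into fibre cells they add a second network, the beaded filament, built from filensin (Bfsp1) and phakinin (Bfsp2, also CP49) and decorated with alpha-crystallin. Plakins such as plectin (Plec) and dystonin (Dst) tie these networks to one another, to actin and microtubules, and to the cell membrane. Loss of the beaded filament proteins is known to cloud the lens or to disturb the order of its fibres.

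The levels rest on the probe sequences, which are 50 bases long. Those of the brightest probe of the beaded filament gene and of the vimentin gene and of all 3 keratin probes are shown because the results on these genes turn on a single probe or on the lack of signal from it. They are printed 5′ to 3′ in lower case, with no base marked.
Bfsp2, chr9:103328904-103328953, minus strand: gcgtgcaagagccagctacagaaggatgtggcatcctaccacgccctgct
Vim, chr2:13495591-13495640, plus strand: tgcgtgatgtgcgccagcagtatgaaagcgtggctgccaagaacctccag
Krt8, chr15:101827396-101827445, minus strand: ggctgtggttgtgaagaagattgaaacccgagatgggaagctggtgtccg
Krt18, chr15:101861846-101861895, plus strand: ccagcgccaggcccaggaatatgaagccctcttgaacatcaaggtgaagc
Krt19, chr11:100002623-100002672, minus strand: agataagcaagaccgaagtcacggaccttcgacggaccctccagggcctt
The positions are those of the files, which name no genome build. Of the 29 probes with a position, 5 lay inside the same gene in GRCm38.p6, so the positions belong to another build and exon annotation was not added.

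A probe was taken as detected on an array when its detection p-value, which ranks its intensity against negative control beads, was under 0.05. Of the 35 probes, 9 were detected on all 4 arrays and 22 on none. The 12 probes detected on at least 2 arrays were retained, and they covered 7 genes. Bfsp2 and Krt8 had 1 probe each, which was retained. Vim and Nes had 1 of 2 probes retained, Gfap 2 of 2, Plec 3 of 14 and Dst 3 of 11. The single probes of Krt18 and Krt19 were detected on no array.

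**Figure D1:**
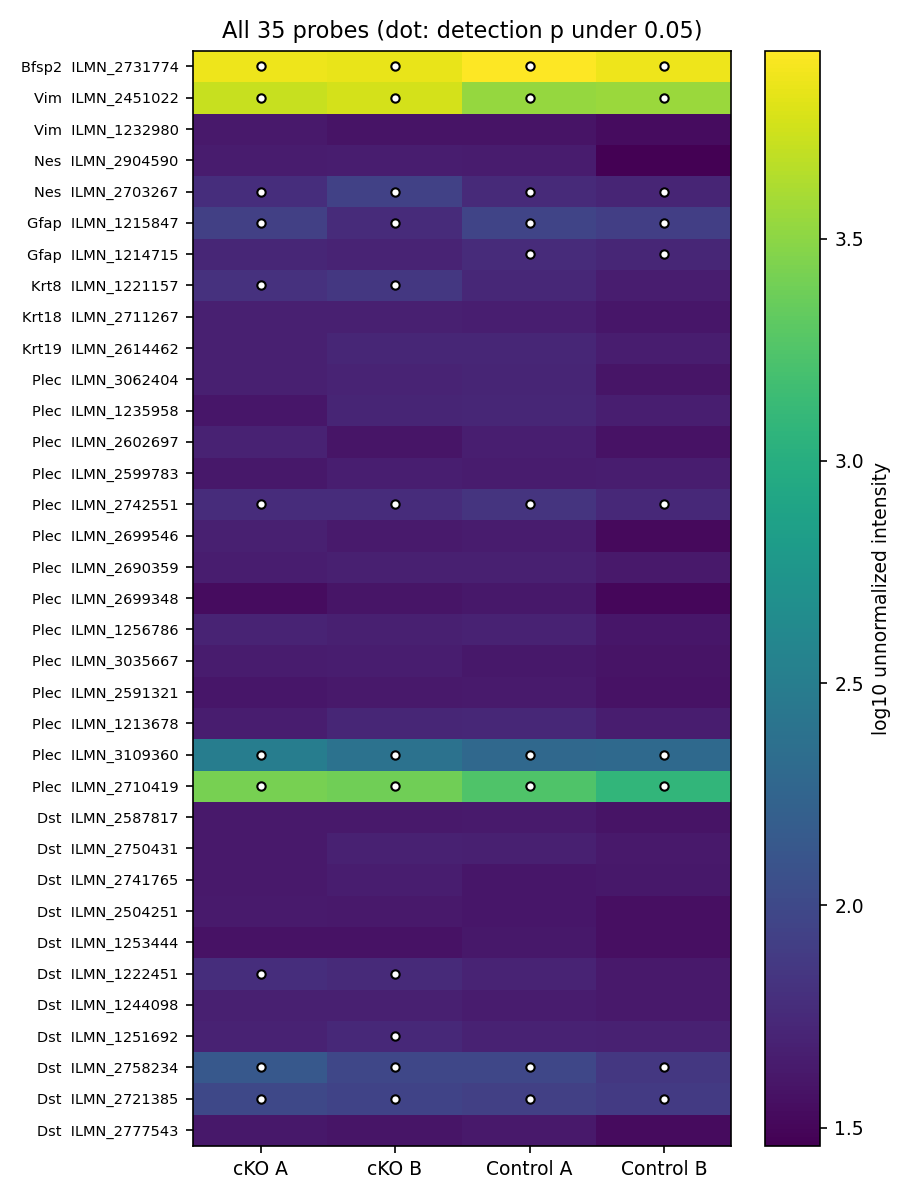
Unnormalized intensity (log10, colour) of all 35 probes, in rows by gene and probe name, on the 4 arrays, in columns. A white dot marks a detection p-value under 0.05. The 9 rows with 4 dots are the probes detected on all arrays, and the 22 rows with none stay near background.

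The cKO arrays were brighter than the Control arrays, with 16261 and 16925 probes detected on the former against 14542 and 14180 on the latter. Signal was therefore scaled before the groups were compared (neqc, in log2 units), and every change is given for that scaling. When each array was only set to the same median, the median over all genes rose from 0.01 to 0.53 in log2 fold change. Celf1 was reduced in cKO, at -1.43 ± 0.19 (SE) in log2 units (adjusted p = 0.00977, limma), and lay below 0 under every alternative tried, from -1.67 to -0.60. Xist, the RNA of the inactive X chromosome, was below background in both Control lenses and at least 6.09-fold higher in the cKO lenses, whereas the Y-linked Ddx3y fell by 3.09 ± 0.55 (adjusted p = 0.0195). The cKO lenses differed in Ddx3y, with log2 signals of 6.81 in cKO A and 4.82 in cKO B against 8.99 and 8.82 in Control, while Xist was at 7.42 and 7.27 in them. The sex of the mice is not given in the labels, and genotype and sex cannot be told apart for any gene described.

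Of the 7 genes tested, Bfsp2 and Gfap were reduced in cKO lenses and none was called elevated. A call required an adjusted p under 0.05, a log2 change of more than 0.58 in either direction and a log2 signal averaging more than 4.6. Over all 11518 genes tested, 11.7% were called, 5.64% as reduced and 6.02% as elevated. With equal medians or no scaling, Bfsp2 and Gfap were not called, and Vim and Nes were instead called, both higher in cKO, where 5274 and 5657 of all genes were called elevated. Krt8 passed the same thresholds there, but its probe was retained only through the cKO lenses. When 1 array was left out, 0 to 1 of the 6 or 7 genes still tested were called. The groups had separate values in Bfsp2, Gfap and Plec, where cKO lay below Control, and in Krt8, where it lay above. Such a gap is common with 2 arrays against 2, and 62.3% of all genes had one.

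**Figure D2:**
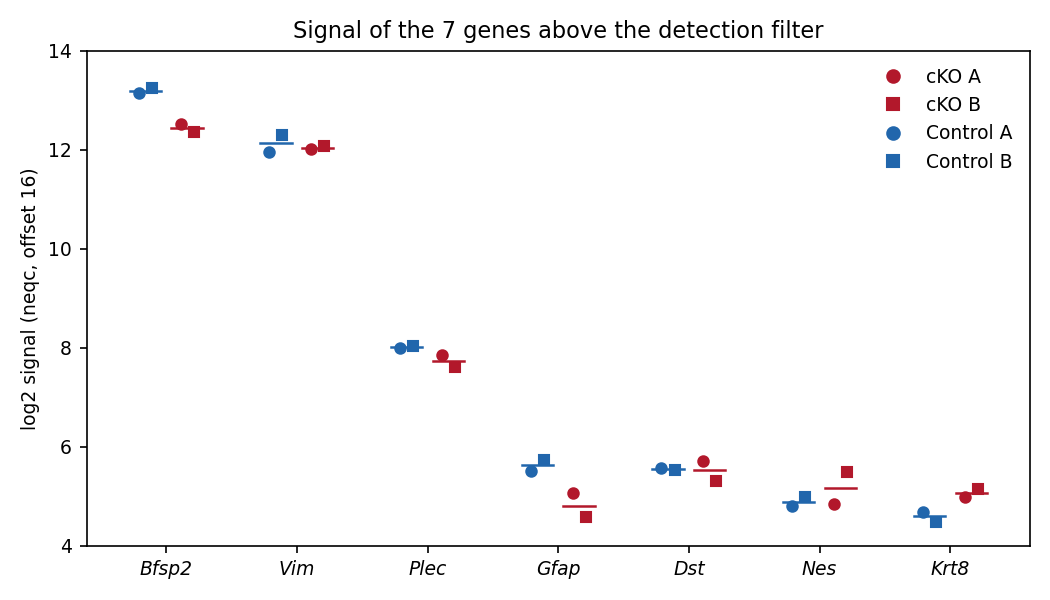
Log2 signal after neqc (y axis) of the 7 genes with a retained probe (x axis), ordered by their Control mean. Circles and squares are replicates A and B, red is cKO, blue is Control, and bars are group means (n = 2). For Bfsp2, Plec and Gfap both red points lie below both blue points, for Krt8 they lie above, and for Vim, Dst and Nes the groups overlap. Levels of different genes come from different probes and are not compared.

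Bfsp2 encodes phakinin, which co-assembles with filensin into the beaded filament of fibre cells. Its log2 signal was 12.52 in cKO A, 12.35 in cKO B, 13.14 in Control A and 13.25 in Control B. Both cKO lenses were thus below both Control lenses by more than the gap between replicates. Bfsp2 was reduced by a log2 fold change of -0.76 ± 0.14 (SE), with a 95% interval of -1.10 to -0.42 and an adjusted p of 0.0227 (limma), which left 0.591 of the Control signal. In bulk lens RNA, fewer cells that express a gene and less RNA of it per cell cannot be told apart.

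The values of Bfsp2 after quantile scaling rest on the order of probes on each array, which is given here for that reason. Among the 45263 probes used, ranked by unnormalized intensity from the brightest, the Bfsp2 probe stood at 176 in cKO A and 201 in cKO B, and at 106 in Control A and 93 in Control B. Its unnormalized intensity was 7175.1 in cKO A, 6901.3 in cKO B, 8371.0 in Control A and 7312.3 in Control B. The cKO values were thus only slightly lower before scaling, on arrays that were brighter as a whole. In the table that the authors normalized, the values were 6512.1, 6099.0, 12153.2 and 14045.2 in the same order. The probe was read from 33 to 41 beads on each array, with a standard error over beads of 3.44 to 4.93% of its intensity.

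The log2 fold change of Bfsp2 was below 0 under all 20 alternatives tried, and the call was lost under 8 of them. With 1 probe detected on all arrays, the detection filter, probe choice, minimum signal, variance model, fold threshold and replicate block cannot change the fold. The fold could move only with the table, background correction, scaling or arrays used. With no scaling between arrays it was -0.15 (adjusted p = 0.557) and with equal medians -0.19 (adjusted p = 0.437). These 2 settings differ only by a constant per array. Every gene therefore has the same value in both relative to the median of all genes, which was -0.72 for Bfsp2. The log2 fold change ranged from -0.86 to -0.66 when 1 array was left out, and the call was lost without cKO A, without cKO B or without Control B.

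Vim encodes vimentin, the filament protein of both lens epithelium and young fibre cells. Its log2 signal was 12.01 in cKO A, 12.07 in cKO B, 11.95 in Control A and 12.30 in Control B. The cKO values lay between those of the Control lenses. The log2 fold change was -0.09 ± 0.16 (SE), with a 95% interval of -0.48 to 0.30 (adjusted p = 0.735, limma), an interval that does not reach the called size of 0.58 in either direction. The rank of the retained probe was 269 and 259 in the cKO lenses and 280 and 213 in the Control lenses. The direction turned with the scaling, to 0.63 with equal medians and to 0.66 with no scaling (adjusted p = 0.0160 and 0.0116), and relative to the median of all genes it was 0.09 in both. The other Vim probe, designed on a cDNA clone, had detection p-values from 0.637 to 0.968 and was not used.

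The signal of Bfsp2 was also set against that of the other genes within each array, after neqc. Relative to the mean of the Control arrays, the log2 ratio of Bfsp2 to Vim was -0.55 in cKO A and -0.78 in cKO B, and 0.12 in Control A and -0.12 in Control B. The change in the ratio was -0.67. The ratio of Bfsp2 to Plec changed by -0.48, that to Dst by -0.74 and that to Nes by -1.03, and in each the cKO arrays lay below the Control arrays. All of these ratios share the Bfsp2 signal, so they are not separate results. Groups did not overlap in 62.3% of single genes, and the share among gene pairs was not computed. The ratio of Bfsp2 to Gfap changed by 0.05 and overlapped between the groups. Over the 16 alternatives that kept all 4 arrays, the change ranged from -0.82 to -0.66 for Vim, from -0.74 to -0.48 for Plec, from -1.13 to -0.57 for Dst, from -1.36 to -0.82 for Nes and from -0.35 to 0.41 for Gfap. With 1 array left out it ranged from -0.80 to -0.54 for Vim and from -0.57 to -0.38 for Plec. For Dst it then ranged from -0.80 to -0.43, for Nes from -1.41 to -0.67 and for Gfap from -0.18 to 0.46. Gfap and Dst each include a probe that was below background in 1 group, and over the probes detected on all 4 arrays their ratios changed by 0.37 and -0.57. These ratios are descriptions without a test, and none is given for Krt8, which was not above background in Control.

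**Figure D3:**
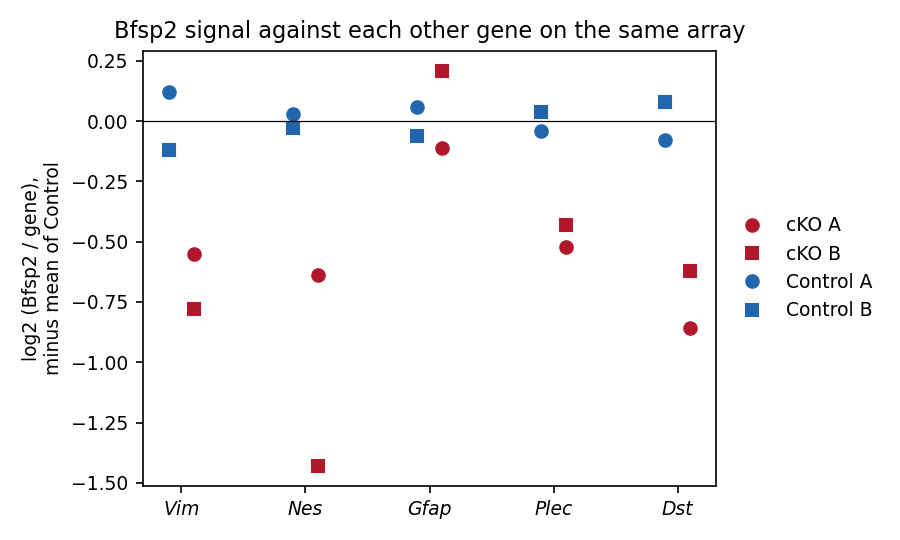
Log2 ratio of the Bfsp2 signal to that of each other gene on the same array (y axis), minus the mean of the Control arrays, for 5 genes (x axis). Circles and squares are replicates A and B, red is cKO and blue is Control. Red points lie below blue points for Vim, Nes, Plec and Dst, and on either side of them for Gfap.

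Gfap encodes the filament protein of astrocytes, which is also known from the lens epithelium of rodents. Its log2 signal, averaged over 2 probes, was 5.06 in cKO A, 4.57 in cKO B, 5.50 in Control A and 5.73 in Control B. Both cKO values were below both Control values, at a level near background in all lenses. Gfap was reduced by a log2 fold change of -0.81 ± 0.20 (SE), with a 95% interval of -1.27 to -0.34 (adjusted p = 0.0434, limma). That mean includes a probe retained only through the Control lenses, where it was high. With only the probe detected on all 4 arrays, Gfap was at -1.13 (adjusted p = 0.0316, limma) and was called.

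Both probes of Gfap were lower in cKO, and whether they differed from each other in their change was not tested. In a fit over all 16262 retained probes, of which 11.5% were called, ILMN_1215847 was called reduced at -1.13 ± 0.27 on the log2 scale (adjusted p = 0.0400). Its log2 signal was 5.56 and 4.69 in the cKO lenses and 6.15 and 6.36 in the Control lenses, so that the cKO lenses differed from each other by more than cKO A did from Control A. ILMN_1214715 was detected in both Control lenses and in neither cKO lens. Control exceeded cKO by at least 1.33-fold, with measured means of 4.98 in Control and 4.50 in cKO, and it was not called. It passed the thresholds under 1 of 12 alternatives, at -1.01 with medians set over the probes detected on all 4 arrays. The probe was retained only through the Control lenses, where it was high, so that no fit of it under any setting is a test.

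The log2 fold change of Gfap stayed below 0 under all 20 alternatives, and the call was lost under 10. Of the alternatives, the minimum signal, variance model, fold threshold and replicate block cannot change the fold. Without background correction it was -0.40 (adjusted p = 0.0549), and with the authors' normalized values -1.46 (adjusted p = 0.109). Leaving out cKO B gave -0.53 (adjusted p = 0.272), leaving out Control A gave -1.26 (0.0766) and leaving out Control B gave -1.10 (0.163). Without either Control array only ILMN_1215847 was retained, so the latter values are those of that probe, which was at -1.13 with all arrays. Of 8 astrocyte markers, which include Gfap, 5 were tested. Gfap and Fgfr3, which lens cells also express, were reduced. Slc1a3, Aqp4 and Gja1 were not called. Aqp4 had a higher mean in cKO, as did Slc1a3, which passed the detection filter only through the cKO lenses. The summed signal of the list was 901 and 1146 in the cKO lenses and 1501 and 1375 in the Control lenses, of which Gja1, overlapping between the groups, gave 514 and 776 against 910 and 601. S100b was detected on no array. The part of astrocyte RNA in the Gfap result was not tested.

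Nes encodes nestin, a long filament protein of progenitor cells that pairs with vimentin. Its log2 signal was 4.85 in cKO A, 5.48 in cKO B, 4.80 in Control A and 4.98 in Control B. The single high value of cKO B set the difference, and cKO A lay between the Control lenses. The log2 fold change was 0.28 ± 0.22 (SE), with a 95% interval of -0.25 to 0.80 (adjusted p = 0.430, limma), and it was -0.04 without cKO B. Under equal medians and no scaling it was 0.62 and 0.66 (adjusted p = 0.0397 and 0.0235). It turned to -0.10 when medians were set over the probes detected on all 4 arrays, where the median of all genes was -0.19. Relative to the median of all genes Nes was 0.09 in each of these settings.

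Krt8 and Krt18 encode the keratin pair of simple epithelia, and Krt19 a smaller keratin that can pair with Krt8. The unnormalized intensity of the Krt8 probe was 64.2 in cKO A, 72.0 in cKO B, 54.5 in Control A and 45.1 in Control B. It was detected in both cKO lenses, with detection p-values of 0.00214 and 0, and in neither Control lens, with 0.0524 and 0.162. Krt8 was not called.

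After scaling, the log2 signal of Krt8 was 4.99 and 5.14 in the cKO lenses and 4.69 and 4.48 in the Control lenses. Since the Control values were not above background, the difference is a bound of at least 1.25-fold higher in cKO (adjusted p = 0.0791, limma). The cKO arrays had more detected probes in general, and with medians set over the probes detected on all 4 arrays the fitted log2 fold change was -0.02. The probe was retained only through the cKO lenses, where it was high, so that no fit of Krt8 under any setting is a test.

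Krt18, the usual partner of Krt8, had unnormalized intensities of 47.2, 47.3, 46.3 and 40.7 in cKO A, cKO B, Control A and Control B, with detection p-values from 0.246 to 0.491. Krt19 had 47.1, 52.8, 53.1 and 45.4 in the same order, with detection p-values from 0.0812 to 0.249. Neither was distinguishable from negative control beads on any array, so no fold change is given for them.

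Plec encodes plectin, the plakin that cross-links intermediate filaments to other parts of the cytoskeleton and to junctions. Its log2 signal, averaged over 3 probes, was 7.86 in cKO A, 7.60 in cKO B, 7.99 in Control A and 8.03 in Control B. The cKO values lay below those of Control, with a log2 fold change of -0.28 ± 0.15 (SE) and a 95% interval of -0.64 to 0.08 (adjusted p = 0.248, limma). With equal medians it turned to 0.35 and with no scaling to 0.39, and relative to the median of all genes it was -0.18 in both.

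Plectin transcripts differ in their first exon, and the array covers many of these variants. Of the 14 Plec probes, 12 start within the first 230 bases of a transcript variant and 2 near its 3′ end. Of the 12, only ILMN_2742551, on the transcript that the files call variant 7, was detected, and the other 11 had unnormalized intensities from 32.1 to 53.7. Whether the variants of these 11 probes are absent from the lens was not tested.

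The 3 retained Plec probes differed in their values. ILMN_2710419 at the 3′ end had log2 signals of 10.96 and 10.78 in cKO and 10.97 and 10.80 in Control, which overlapped (log2 fold change -0.01 ± 0.16, adjusted p = 0.963). ILMN_3109360, also at the 3′ end, had 7.78 and 7.29 in cKO and 7.64 and 8.06 in Control (-0.31 ± 0.22, adjusted p = 0.388). The variant 7 probe had 4.84 and 4.73 in cKO and 5.37 and 5.23 in Control, and its groups did not overlap (-0.52 ± 0.16, adjusted p = 0.0712). The lower Plec mean in cKO thus came from ILMN_3109360 and the variant 7 probe, and none of the 3 was called. The variant 7 probe was at -0.91 (adjusted p = 0.00726) with medians set over the probes detected on all 4 arrays, and ILMN_2710419 at 0.75 (0.0144) with equal medians. Whether the probes differed from one another in their change was not tested.

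Dst encodes dystonin, a giant plakin with neural, muscle and epithelial forms. Its log2 signal, averaged over 3 probes, was 5.72 in cKO A, 5.31 in cKO B, 5.56 in Control A and 5.52 in Control B. The groups overlapped, with a log2 fold change of -0.02 ± 0.17 (SE), a 95% interval of -0.43 to 0.39 and an adjusted p of 0.946 (limma). Its direction depended on the setting, from -0.30 with medians set over the probes detected on all arrays to 0.46 with no scaling. Relative to the median of all genes Dst was -0.11 in both.

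The Dst probes gave no common direction under the scaling used, whereas all 3 were above 0 with equal medians (0.28 to 0.58) and below 0 with medians set over the probes detected on all 4 arrays (-0.44 to -0.14). ILMN_2721385 had log2 signals of 5.84 and 5.59 in cKO and 5.93 and 6.16 in Control (log2 fold change -0.33 ± 0.17, adjusted p = 0.242). ILMN_2758234, which lies on the same transcript in the files, had 6.47 and 5.70 in cKO and 6.24 and 6.02 in Control (-0.05 ± 0.25, adjusted p = 0.917). ILMN_1222451 was detected in the cKO lenses only and was at least 1.01-fold higher there. It passed the filter only through those lenses, where it was high, so no fit of it is a test. Over the probes detected on all 4 arrays, Dst was at -0.19 (adjusted p = 0.511, limma). Of the other 8 probes, 7 were detected on no array and 1 on cKO B alone.

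**Figure D4:**
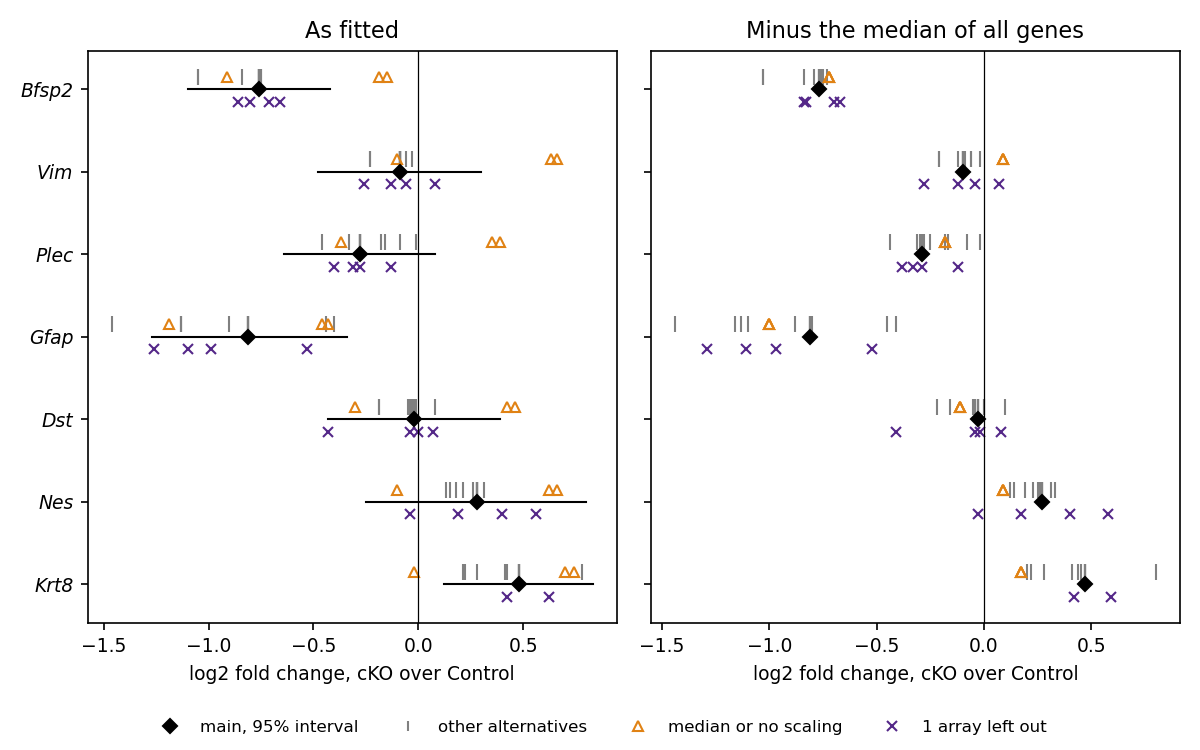
Log2 fold change of cKO over Control (x axis) for the 7 genes, as fitted (left) and minus the median of all genes under the same setting (right). Diamonds are the values reported, with 95% intervals as black lines on the left. Grey ticks and orange triangles are alternatives with all arrays, the triangles being those that scale arrays by a median or not at all, and purple crosses leave out 1 array. Bfsp2 and Gfap lie below 0 throughout, while every other gene crosses 0 on the left. Krt8 was not above background in Control, and its fitted values are no bound.

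Other genes of the system were counted from lists of filament proteins, anchors, chaperones and regulators. Among 23 further cytoplasmic filament genes, 4 were tested and none was called by limma, with all 4 at a lower mean in cKO and a median log2 fold change of -0.31 against 0.01 for all genes. With equal medians 2 of the 4 were lower and the median was 0.14, which is -0.39 relative to that of all genes. Synm, which encodes synemin and pairs with vimentin, had a log2 fold change of -0.26 ± 0.16 (adjusted p = 0.320), and Krt10 one of -0.03 ± 0.14 (0.912). The muscle filament genes Des and Sync had -0.35 ± 0.18 (0.229) and -0.52 ± 0.14 (0.0535). Of the 8 muscle markers, which include Des, 5 were detected on no array, Actn2 was reduced and Myh8 was not called (0.11, adjusted p = 0.621). The summed signal of the list was 186 and 75 in cKO and 1629 and 1174 in Control, of which the Actn2 probes alone gave 141 and 30 in cKO and 1584 and 1110 in Control. The part of muscle RNA in the values of Des and Sync was not tested. The neurofilament genes Nefl and Nefm, the stratified keratins Krt5 and Krt13 and 8 others were detected on no array.

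Among 17 plakins and anchors, 9 were tested and 1 was called, with a median of 0.06. Dsp, which encodes desmoplakin of the desmosome, was below background in both Control lenses and had log2 signals of 5.26 in cKO A and 5.81 in cKO B, at least 1.73-fold above Control. Dsp passed the detection filter only through the cKO lenses, where it was high, so its call is a description. It was not called without a detection filter (0.44, adjusted p = 0.101), and none of the 7 anchors detected on all 4 arrays was called by limma. The periplakin gene Ppl, named for a plakin that binds the beaded filament proteins in the lens, was not called (0.06 ± 0.15, adjusted p = 0.816). The anchor genes of highest signal, Cd151, Pkp4 and Pkp2, had log2 fold changes of 0.11, -0.21 and -0.34, and none was called.

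Among 16 chaperones and proteases of filament proteins, 14 were tested, 1 was elevated and 1 was reduced, with a median of -0.09. Hspb8, which encodes a small heat shock protein, had log2 signals of 9.57 and 9.97 in cKO and 6.55 and 6.52 in Control (log2 fold change 3.24 ± 0.17, adjusted p = 8.89e-04). Hspb1, another small heat shock protein gene, was reduced (-0.69 ± 0.13, adjusted p = 0.0244). Cryaa and Cryab, whose products bind the beaded filament, had log2 fold changes of -0.22 ± 0.14 (adjusted p = 0.332) and -0.24 ± 0.15 (0.319). Capns1, the small subunit of calpains, had 0.55 ± 0.13 (adjusted p = 0.0437), short of the fold asked for a call. Capns1 was called under 3 of 20 alternatives, at 1.35 with equal medians, 1.39 with no scaling and 0.63 with medians set over the probes detected on all 4 arrays.

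Among 20 kinases, phosphatases and other regulators of filament assembly, 17 were tested and 1 was called, with a median of 0.18. Pak2, of a kinase family that phosphorylates vimentin, was reduced (-0.75 ± 0.14, adjusted p = 0.0203). The 3 uncalled genes of highest signal were the 14-3-3 genes Ywhah and Ywhaz and the phosphatase gene Ppp2ca, with log2 fold changes of 0.37, 0.31 and 0.18. The 4 lists thus held 0 of 4, 1 of 9, 2 of 14 and 1 of 17 called genes, beside 11.7% of all genes, and no test of a list was made. With equal medians the lists held 1 of 4, 5 of 9, 6 of 14 and 8 of 17 called genes, beside 47.0% of all genes under that setting, and the medians of the anchors, chaperones and regulators relative to that of all genes were 0.15, -0.01 and 0.01. Of the partner genes called, Hspb8 was called under 20 of 20 alternatives, Hspb1 under 12 and Pak2 under 11 of 20. Dsp passed the thresholds under 13 of 17, which is no test, since it was retained only through the cKO lenses. Hspb1 turned to 0.04 with equal medians and 0.08 with no scaling, where the median of all genes was 0.53 and 0.57. Hspb8 and Pak2 kept their sign.

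**Figure D5:**
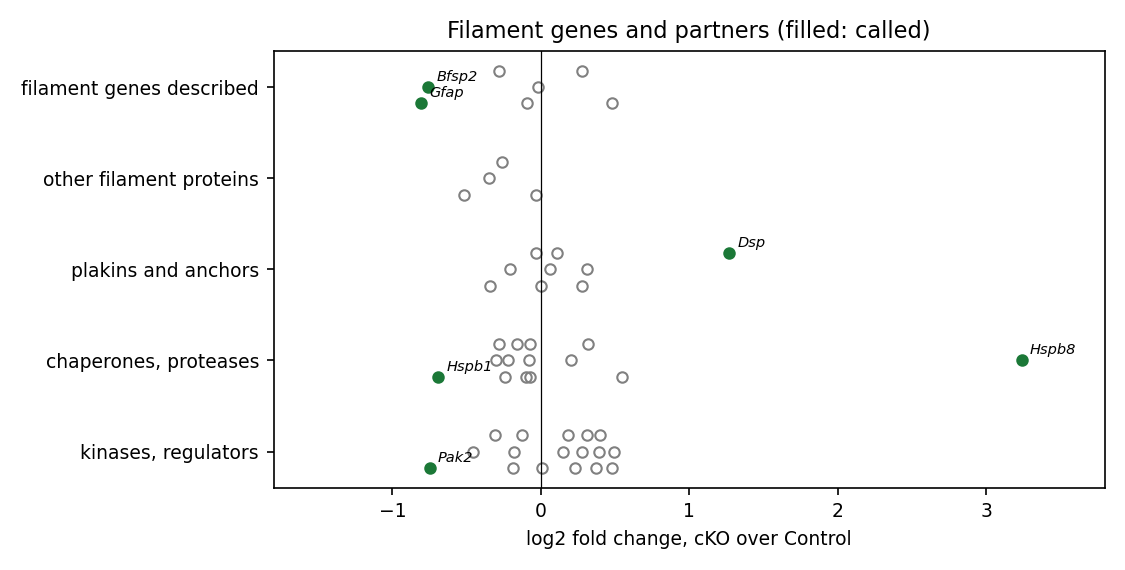
Log2 fold change of cKO over Control (x axis) for the tested genes of the filament system described and of 4 lists of partners (rows). Filled green points are called and named, and open grey points are not called. The vertical position within a row has no meaning. Hspb8 at 3.24 lies farthest from 0, and the row of other filament proteins has no filled point. Dsp and Krt8 were not above background in Control and stand at their fitted values, and Hspb1 turned positive with equal medians or no scaling.

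The genes whose values over the 4 arrays, centred on each gene's own mean, lay nearest to those of Bfsp2 were Oca2, Ctnnb1 and Fam189a1, with a root mean square distance of 0.011, 0.015 and 0.018 log2 units and log2 fold changes of -0.78, -0.77 and -0.79. Those nearest to Vim were Magef1, 9630013D21Rik and Kyat1, at 0.0031, 0.01 and 0.013 log2 units. With 4 arrays such likeness is a description only.

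The lens label was checked against 12 lens markers, of which 11 were detected and Pax6 was not. Foxe3, a transcription factor of the lens epithelium, and Maf, one of fibre cells, were reduced by a log2 fold change of -0.79 and -1.14, beside the reduction of Bfsp2. The other 9 were not called. Under the scaling used, 10 of the 11 had a lower mean in cKO, with a median of -0.20 against 0.01 for all genes. Of the uncalled genes, Lim2, a fibre cell membrane protein gene, was lowest at -0.48 ± 0.14 (adjusted p = 0.0692), followed by Prox1 at -0.37 (0.149), and Mip, another fibre membrane gene, was at -0.07 (0.753). Of 12 retina markers 9 were detected on no array, and the 3 tested, Slc1a3, Pde6b and Aqp4, all had a higher mean in cKO with none called. Slc1a3 and Pde6b passed the detection filter only through the cKO lenses, where they were high, so their direction is not a result. Slc1a3 had a log2 signal of 4.61 in cKO A and 5.94 in cKO B. None of 9 markers of cornea and surface epithelium, among them Krt5 and Krt13, passed the filter. Their summed signal was 52 in cKO A, 148 in cKO B, 60 in Control A and 56 in Control B. Of 7 vessel markers tested, 4 had a higher mean in cKO, of which Emcn was elevated (1.12, adjusted p = 0.0177), and Kdr, Tek and Pecam1 had a lower one. Vessel markers had a summed signal of 596 and 576 in cKO and 442 and 383 in Control, beside the Vim and Nes values, since vessel cells also express these genes. Of 4 macrophage markers tested, C1qb and Cd68 were below background in Control, passed the detection filter only through the cKO lenses and were at least 1.22- and 1.26-fold higher there, and Aif1 and Csf1r were not called. Of 8 fibroblast markers 2 were tested and 5 were detected on no array. The fibroblast marker Pdgfra was at -1.12 (adjusted p = 0.0915), with log2 signals of 7.31 and 6.02 in cKO and 7.80 and 7.76 in Control, and was not called. Of 2 blood markers tested, Slc4a1 was reduced (-1.03, adjusted p = 0.0114) and Hba-a1 was not called (-0.08). The summed signal of the blood list was 500 and 216 in cKO and 436 and 367 in Control. The pigment cell marker tested, Pmel, was not called (-0.40). The part of vessel, macrophage and fibroblast RNA in the Vim and Nes values was not tested.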

How the data were processed

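RNA of 4 mouse lenses was hybridised to Illumina MouseWG-6 v2.0 BeadChips. The authors deposited the unnormalized signal intensity and a table scaled by rank-invariant normalization, per the file headers, both exported from GenomeStudio. Within an array the 2 intensities were related linearly (slopes of 0.913, 0.889, 1.46 and 1.93 for cKO A, cKO B, Control A and Control B). The deposited tables also hold a detection p-value per probe, identical in both tables as well as bead numbers with their standard errors. Lines with shifted cells in the former (18) were left out, leaving 45263 probes.

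The members and gene lists were chosen with earlier results of these data known. Probes were named by the symbols of the files, updated through a RefSeq table of GRCm38.p6. A further probe each that this table assigns to Krt8 and Dst, under other symbols in the files, was detected on no array.

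The unnormalized intensity was corrected and normalized with neqc of limma version 3.58.1 in R version 4.3.3 (normexp on negative controls inferred from the detection p-values, offset of 16, quantile, log2). The offset makes fold changes of dim probes smaller. Probes with a detection p under 0.05 on at least 2 arrays were kept and averaged per gene on the log2 scale. lmFit and eBayes compared all 4 arrays, in two-sided tests adjusted by Benjamini-Hochberg across the 11518 genes (16262 probes for single probes). SE is the moderated standard error. The thresholds follow the methods of the study, whose count model was not applied because the values are intensities. With 2 arrays in each group, whose number limits the precision, an exact permutation test cannot go below p = 0.333. For a probe below background on both arrays of a group, the bound sets the brighter mean against the higher of the lowest detected signal and the probe's own value, averaged over arrays. Genes named are all members, the called genes and the 3 uncalled genes of highest signal in each partner list, Celf1, Xist and Ddx3y, and the 3 genes nearest to Bfsp2 and to Vim. Ppl, Des and the markers were named after their values were seen. An item of the chaperone and protease list and 1 probe sequence are not reported here. The fit was tested on simulated data. Alternatives covered the table, background correction, scaling, detection filter, minimum signal, probes of a gene, variance model, fold threshold, replicate letters and leaving out each array. Tables were read with Python version 3.11.15.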

Additional observations from a re-analysis of the deposited data

How the results depend on the processing

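Bfsp2 and Gfap were below 0 in log2 fold change under all 20 alternatives. The minimum signal, variance model, fold threshold and replicate block cannot change a fold, nor can the detection filter and probe choice change that of Bfsp2. Against 1343 genes called and 2 of the genes described, the normalized table of the authors gave 7 and 0, no background correction 718 and 1, normexp with an offset of 50 789 and 1, no detection filter 207 and 0, and a test against the fold threshold (treat) 86 and 0. Equal medians gave 5418 genes and 3 of those described, no scaling 5790 and 3, which were Vim, Nes and Krt8 (the last retained through cKO only), all higher in cKO, and not Bfsp2 or Gfap (144 and 133 of all genes were reduced there), and medians over probes detected on all 4 arrays 2691 and 2. Leaving out 1 array gave 163 to 1364 genes and 0 to 1 of those described. Adding 16 to the authors' values before the log, chosen after seeing the data, gave 1191 and 2. The cause of these shifts was not tested.

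Directions turned as follows, in log2 fold change. With equal medians Vim was 0.63, Plec 0.35, Dst 0.42, the probes ILMN_2721385 and ILMN_2758234 of Dst 0.28 and 0.58, and ILMN_2710419 and ILMN_3109360 of Plec 0.75 and 0.50. With no scaling they were 0.66, 0.39, 0.46, 0.31, 0.62, 0.79 and 0.54. The median of all genes was itself 0.53 with equal medians and 0.57 with no scaling. With medians over the probes detected on all arrays Nes was -0.10, Krt8 -0.02, ILMN_1222451 of Dst -0.32 and ILMN_2710419 of Plec 0.03. There the median of all genes was -0.19, and relative to it Nes was 0.09 and Krt8 0.17. In the authors' table Dst was 0.08. Leaving out 1 array, Vim ranged from -0.26 to 0.08, Nes from -0.04 to 0.56, Dst from -0.43 to 0.07, ILMN_2758234 from -0.42 to 0.33 and ILMN_2710419 from -0.11 to 0.08.

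The replicate letters did not pair the lenses: across genes, the difference A minus B in cKO and in Control had a correlation of -0.011. With the replicate block 1686 genes and 2 of those described were called, and no call among the latter changed. No slide is named in the files, and a slide block was not run. With 1 array left in a group, that lens is assumed to vary like the others. Gfap, Nes, Krt8 and 1 Plec and 1 Dst probe lie near background, where the signal limits what can be measured.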
